A study of Mus musculus with 13 samples.

Results

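The 10 genes described here are genes of cytotoxic and innate lymphocytes, and they were followed through the DN3 and DN4 stages of thymocyte development, out of 47937 genes counted. They were the transcription factor genes Eomes and Tbx21, the granule genes Nkg7, Ctsw, Gzma, Gzmb and Prf1, the receptor and adaptor genes Klrd1 and Fcer1g, and the chemokine gene Ccl5. The list was drawn up with results of these data in view, because Nkg7, Klrd1 and Eomes had lower values in KO-labelled than in Wt DN4 thymocytes. The list was thus chosen by the KO-labelled against Wt difference in DN4, which is described below without a test.

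Cytotoxic lymphocytes, that is natural killer (NK) cells and cytotoxic T cells, kill target cells by releasing granules that hold perforin, which makes pores, and granzymes, proteases that enter the target. The T-box factors T-bet, encoded by Tbx21, and Eomes direct this programme. In the thymus it is best known from γδ T, NKT and other innate-like cells, whereas most CD4-CD8- double negative (DN) cells are precursors of conventional αβ T cells. DN3 cells (CD44low CD25high) and DN4 cells (CD44low CD25low) lie before and after β-selection, the checkpoint for a functional T cell receptor β chain.

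RNA came from freshly sorted DN3 and DN4 thymocytes of C57BL/6 mice that were 6 weeks old. Wt mice were WT;Lck-Cre+ and KO-labelled mice were Opa1fl/fl;Lck-Cre+, so that both groups carried Cre driven by the Lck promoter, which is active in the T cell lineage, and the KO-labelled mice in addition carried floxed alleles of Opa1, a gene for inner mitochondrial membrane fusion. The 13 libraries came from 7 mice. Both stages were sequenced from the mice KO45, KO49, KO51, WT05, WT46 and WT48, and DN4 cells alone from WT40, which made 3 KO-labelled and 3 Wt DN3 and 3 KO-labelled and 4 Wt DN4 libraries.

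Libraries held 5926848 to 14148661 counts, with a median of 10023044, so that a gene at 1 CPM (counts scaled to library size) rested on about 10 counts, with a counting error of 31.6%. The DN3 library of WT05 stood apart, since 41.1% of its counts fell on 8 rRNA-like genes, against 0.440% to 1.74% elsewhere, and the DN3 genotype differences and the stage difference of Nkg7 are given with and without it. Opa1 stood at 89.0 to 92.8 CPM in KO-labelled and 90.7 to 107 CPM in Wt DN3 cells, and at 78.5 to 87.9 and 85.3 to 93.7 CPM in DN4 cells. Because these counts cover the gene as a whole and do not resolve the floxed part, they do not check the genotype labels. Xist had 0 to 2 counts in the libraries of WT40 and WT46 and at least 10672 in the other libraries, the KO-labelled ones included, so genotype and this marker of female cells were not balanced. The 7 DN3 markers, among them Il2ra and Ptcra, summed to 2788 to 3746 CPM in DN3 and 566 to 848 CPM in DN4 libraries.

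The promoter windows of Nkg7, Eomes, Gzma and Gzmb are shown because these genes had contrasting patterns across the stages: Gzma and Nkg7 were read in every library, while Eomes and Gzmb were nearly absent from DN3. Each window is the 250 bases before the RefSeq start of the gene on GRCm38.p6, written 5′ to 3′ on the strand of the gene. Nkg7 is at chr7:43436888-43437137 on the plus strand, Eomes at chr9:118477939-118478188 on the plus strand, Gzma at chr13:113100982-113101231 on the minus strand and Gzmb at chr14:56262335-56262584 on the minus strand. Capitals mark matches on either strand to the T-box site GGTGTGA, the RUNX site TGTGGT and the ETS core CAGGAA, so that a match on the other strand reads ACCACA or TTCCTG.
Nkg7: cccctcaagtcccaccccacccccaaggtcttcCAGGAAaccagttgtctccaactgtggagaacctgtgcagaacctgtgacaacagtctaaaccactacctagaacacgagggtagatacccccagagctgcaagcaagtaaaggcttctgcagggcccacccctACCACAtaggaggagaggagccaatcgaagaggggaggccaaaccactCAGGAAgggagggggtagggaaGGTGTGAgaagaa
Eomes: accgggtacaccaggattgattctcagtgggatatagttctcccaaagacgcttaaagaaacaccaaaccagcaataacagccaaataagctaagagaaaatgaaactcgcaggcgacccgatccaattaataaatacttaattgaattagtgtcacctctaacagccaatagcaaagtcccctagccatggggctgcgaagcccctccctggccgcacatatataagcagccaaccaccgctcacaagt
Gzma: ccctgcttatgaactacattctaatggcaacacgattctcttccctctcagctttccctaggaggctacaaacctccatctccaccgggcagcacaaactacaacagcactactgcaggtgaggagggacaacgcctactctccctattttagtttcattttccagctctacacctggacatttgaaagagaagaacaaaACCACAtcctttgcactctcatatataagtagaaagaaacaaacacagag
Gzmb: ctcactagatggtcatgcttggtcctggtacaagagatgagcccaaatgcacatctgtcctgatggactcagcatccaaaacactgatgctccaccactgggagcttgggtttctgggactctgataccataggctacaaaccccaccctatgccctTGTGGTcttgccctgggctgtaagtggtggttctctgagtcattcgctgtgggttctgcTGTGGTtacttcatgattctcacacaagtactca

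The Nkg7 window held the T-box site, with its first base 13 bases before the start, as well as 1 RUNX and 2 ETS matches. Among the 7 members with a RefSeq promoter entry, Nkg7 was the only one with the T-box letters, which 3.33% of 32851 windows of the same length held. The RUNX letters occurred in 4 of the 7, namely Nkg7, Prf1, Gzma and Gzmb, and in 14% of windows. Fcer1g, Nkg7, Prf1 and Tbx21 held the ETS letters, found in 25.7% of windows. The window of Eomes had no match to any of them. Klrd1, Ctsw and Ccl5 had no entry. These matches are letters in a window, and binding was not measured.

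Without regard to genotype, the genes differed in how far they were read in DN3 cells. Nkg7, Ctsw and Gzma had at least 10 counts in each of the 6 DN3 libraries, Fcer1g, Tbx21 and Ccl5 had 4 to 20, 6 to 12 and 1 to 7 counts, and Prf1, Gzmb, Klrd1 and Eomes 0 to 4. In DN4 cells, 9 of the 10 genes, Gzmb being the exception, had at least 10 counts in each of the 7 libraries. In 7 genes, Klrd1, Eomes, Ctsw, Gzmb, Prf1, Fcer1g and Ccl5, the lowest DN4 library stood above the highest DN3 library, compared with 13.2% of the 13361 genes tested. Klrd1, Eomes, Gzmb, Prf1 and Ccl5 were near 0 in DN3 and reached the filter on low counts through their DN4 libraries. They had to differ in this direction, so the count is given as a description. Scaled to library totals alone the count was 8, with Tbx21 added, and relative to the counts of Ptprc, the leukocyte antigen CD45, it was 6, without Fcer1g. In these bulk libraries, more cells of a type and more RNA per cell cannot be told apart.

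**Figure D1:**
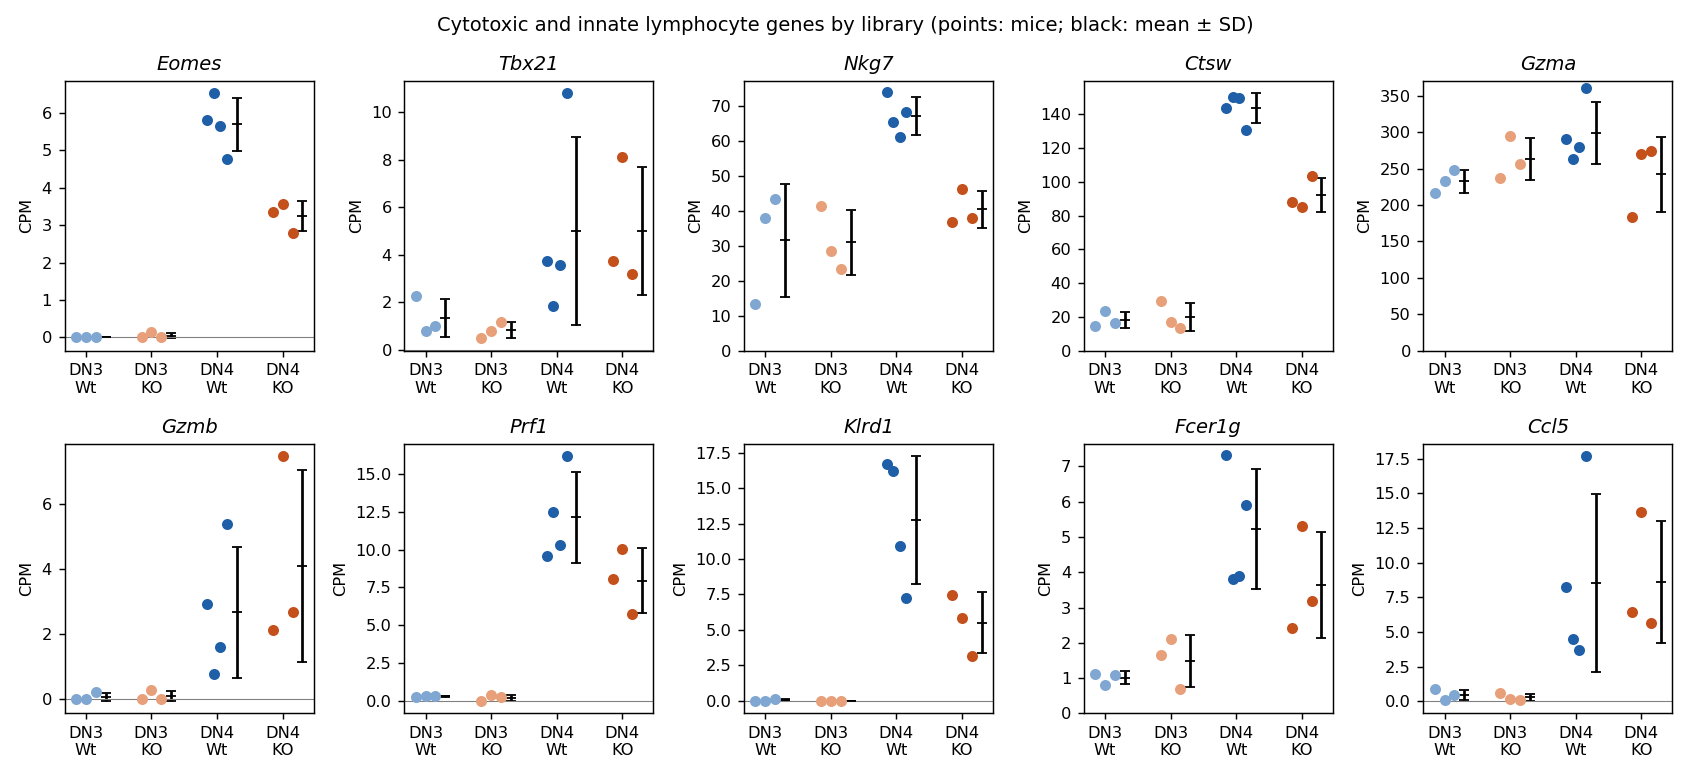
Level of each of the 10 genes in CPM on a linear axis, by stage and genotype. Each point is the library of 1 mouse and the black bars give the mean ± SD (n = 3, 3, 4 and 3 libraries from left to right). Eomes, Klrd1, Gzmb, Prf1 and Ccl5 lie near 0 in DN3, and Gzma lies between 183 and 361 CPM in all 4 groups.

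Divided by exon length, Gzma, a granzyme with trypsin-like specificity, had the highest level of the list at both stages, at 231 CPM per kb in Wt DN3 and 297 in Wt DN4 cells. Nkg7 came second in Wt DN3 cells at 34.5 CPM per kb, and Ctsw next at 9.58, with ranges that did not overlap. In Wt DN4 cells Ctsw stood at 76.1 and Nkg7 at 73.5 CPM per kb, and their ranges overlapped. The remaining genes ranged from 9.96 CPM per kb for Klrd1 down to 1.37 for Eomes in Wt DN4 cells, with overlapping ranges for neighbours in that order.

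In the comparison of DN4 with DN3 in Wt mice, 8 of the 10 genes passed edgeR's quasi-likelihood test at an adjusted p under 0.05, each higher in DN4, where of 12691 genes tested 13.4% were called higher and 9.43% lower. In KO-labelled mice 7 of 10 were called higher and none lower, where of 12580 genes 11.2% were called higher and 7.34% lower. Most of the list reached the filter on low counts through its DN4 libraries and had to differ, so these counts are no support for a common direction. For Nkg7, Klrd1 and Eomes, the DN4 libraries had also entered the choice of the genes.

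Eomes had 0 counts in 5 of 6 DN3 libraries and 1 count in KO49. In DN4 it stood at 5.81, 6.53, 5.66 and 4.78 CPM in WT05, WT40, WT46 and WT48, and at 3.36, 3.56 and 2.79 CPM in KO45, KO49 and KO51. The 3 KO-labelled libraries were all below the 4 Wt libraries. Eomes overlaps Gm33460 on the opposite strand, and the strand setting used for counting was not given in the sources used here. Wt DN4 cells were at least 45.7-fold above Wt DN3 cells, taking 3 counts over the DN3 group as the floor. For KO-labelled mice the ratio was 98.1, with an exact 95% counting interval of 17.3 to 3905 that rests on the single DN3 count.

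Tbx21 was read in each DN3 library, with 6 to 12 counts. Its DN3 levels were 2.25, 0.792 and 0.987 CPM in WT05, WT46 and WT48, and 0.500, 0.790 and 1.17 CPM in KO45, KO49 and KO51. In DN4 cells it reached 3.74, 1.85, 3.59 and 10.8 CPM in WT05, WT40, WT46 and WT48, and 3.73, 8.10 and 3.19 CPM in KO45, KO49 and KO51. WT48 and KO49 were the highest library of their genotype, and the spread over DN4 libraries of a genotype was wider than the distance between genotypes. The fitted DN4 minus DN3 difference was 2.58 on the log2 scale in KO-labelled mice (SE 0.514) and 1.98 in Wt mice (SE 0.701), given without a test since Tbx21 passed the filter through its DN4 libraries. It counts among the called genes in KO-labelled mice, though not without the DN3 library of KO49. In Wt mice it joined them in 5 of 14 alternatives. Among these were the fit with the mouse as a block (2.14, SE 0.577), which also drops WT40, the lowest DN4 library for Tbx21, and the fit without WT40 alone (2.27, SE 0.632).

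Nkg7, a granule membrane protein that takes part in granule release, stood at 13.2, 37.8 and 43.4 CPM in Wt and 41.2, 28.4 and 23.3 CPM in KO-labelled DN3 cells. In DN4 it was at 74.0, 65.2, 61.2 and 68.2 CPM in WT05, WT40, WT46 and WT48, and at 36.8, 46.3 and 37.9 CPM in KO45, KO49 and KO51. The 13.2 CPM came from the DN3 library of WT05, whose counts outside the rRNA-like genes numbered 3491009. The fitted difference between stages was 1.02 in Wt mice (SE 0.316) and 0.68 without that WT05 library (SE 0.118), and it was 0.33 in KO-labelled mice (SE 0.223). These values are given without a test, since the DN4 levels of Nkg7 chose the list. Nkg7 counts among the 8 called genes in Wt mice, but not without the DN3 library of WT46 or without any 1 of the 4 Wt DN4 libraries. Whether the genotypes differ in the stage difference was not tested.

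Ctsw, the cysteine protease cathepsin W of cytotoxic lymphocytes, was at 14.3, 23.2 and 16.7 CPM in Wt and 29.1, 17.0 and 13.5 CPM in KO-labelled DN3 cells. Its DN4 levels were 144, 150, 149 and 131 CPM in Wt and 88.0, 85.0 and 104 CPM in KO-labelled mice. Each DN4 library lay above each DN3 library. The stage difference was 2.92 in Wt (SE 0.170, edgeR adjusted p = 4.3e-05) and 2.16 in KO-labelled mice (SE 0.275, adjusted p = 0.00189). Ctsw overlaps Fibp on the opposite strand, and as for Eomes the strand setting of the counting is unknown.

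Gzma changed least between the stages. It was at 217, 233 and 248 CPM in Wt and 237, 294 and 257 CPM in KO-labelled DN3 cells. In DN4 it was at 291, 263, 280 and 361 CPM in Wt and 183, 269 and 274 CPM in KO-labelled cells. Wt DN4 libraries lay above the Wt DN3 libraries without overlap, as for 21.1% of genes, but the difference of 0.31 did not pass the test (SE 0.133, edgeR adjusted p = 0.133). In KO-labelled mice the value was -0.15 (SE 0.179, adjusted p = 0.586), with libraries of the stages overlapping.

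Within the same mouse, the log2 ratio of DN4 to DN3 for Gzma was 0.42, 0.27 and 0.55 in WT05, WT46 and WT48 and -0.38, -0.13 and 0.09 in KO45, KO49 and KO51. For Nkg7 it was 2.49, 0.69 and 0.65 in those Wt mice and -0.16, 0.70 and 0.70 in the KO-labelled mice. Thus 5 of 6 mice had a higher Nkg7 level in DN4 than in DN3, KO45 being the exception, and without WT05 the range of the Wt mice lay inside that of the KO-labelled mice.

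**Figure D2:**
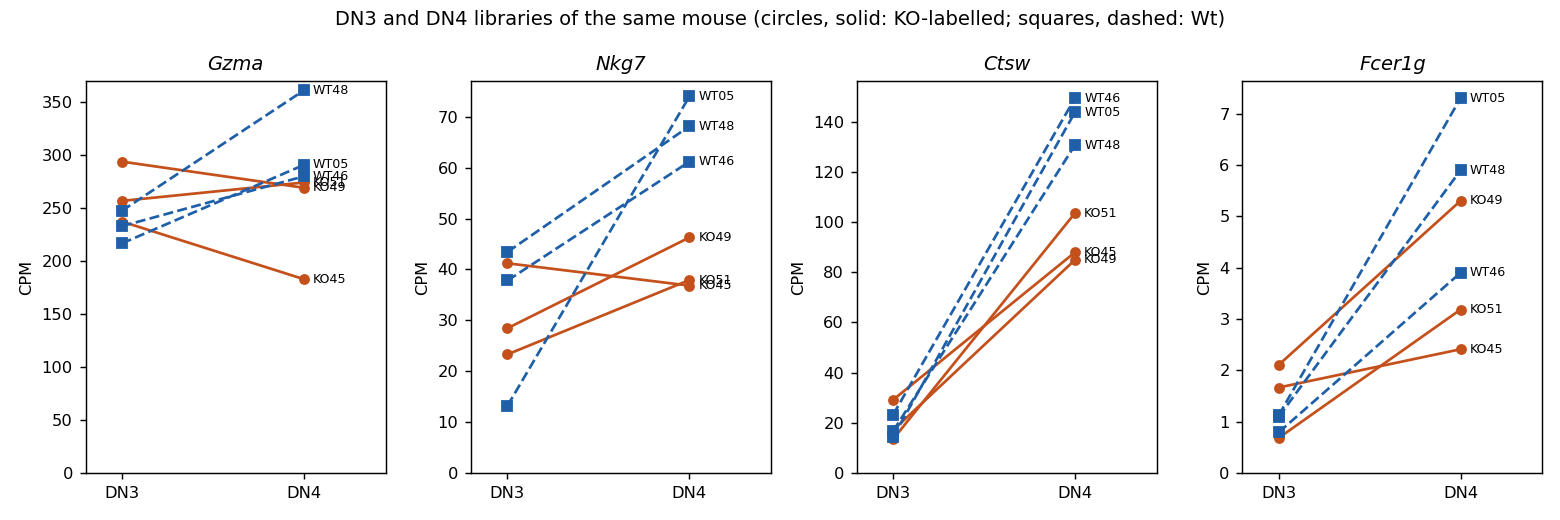
CPM of Gzma, Nkg7, Ctsw and Fcer1g in the DN3 and DN4 libraries of the 6 mice with both, on linear axes from 0, each line joining the libraries of 1 mouse. Ctsw and Fcer1g lines go up in all 6 mice, and the Nkg7 line of WT05 starts at 13.2 CPM, below the other 5 mice.

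Gzmb, a granzyme that cleaves after aspartate, and Prf1, perforin, were close to undetected in DN3. Gzmb had 2 counts over the Wt and 2 over the KO-labelled DN3 libraries, and Prf1 had 0 to 4 counts in a library. In DN4 Gzmb ranged widely, from 0.780 CPM in WT40 to 5.39 CPM in WT48, and from 2.12 CPM in KO45 to 7.47 CPM in KO49. The DN4 to DN3 ratio of Gzmb was 31.2 in Wt (exact 95% counting interval 8.45 to 261) and 63.9 in KO-labelled mice (17.4 to 533), and the call in Wt was lost without the DN3 library of WT46. Prf1 stood at 9.55, 12.5, 10.3 and 16.2 CPM in Wt and 8.04, 10.1 and 5.77 CPM in KO-labelled DN4 cells, a fitted stage difference of 5.10 (SE 0.358) and 5.16 (SE 0.639), given without a test since Prf1 passed the filter through DN4.

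Klrd1, the CD94 chain that pairs with NKG2 receptors, had 1 count in the DN3 library of WT48 and 0 in the other 5 DN3 libraries. Its DN4 levels were 16.7, 16.2, 10.9 and 7.22 CPM in WT05, WT40, WT46 and WT48, and 7.45, 5.86 and 3.19 CPM in KO45, KO49 and KO51. The genotypes overlapped, since KO45 exceeded WT48. KO-labelled DN4 cells were at least 57.0-fold above KO-labelled DN3 cells, and the ratio in Wt mice was 309, with a counting interval of 55.3 to 12240 that again rests on 1 count.

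Fcer1g, the signalling γ chain shared by Fc receptors and some NK receptors, was at 1.12, 0.792 and 1.10 CPM in Wt and 1.67, 2.11 and 0.683 CPM in KO-labelled DN3 cells. In DN4 it reached 7.31, 3.80, 3.90 and 5.90 CPM in Wt and 2.41, 5.31 and 3.19 CPM in KO-labelled cells. The fitted DN4 minus DN3 difference was 2.36 on the log2 scale in Wt mice (SE 0.389) and is given without a test. Fcer1g had 4 to 10 counts in the Wt DN3 libraries and passed the filter of this comparison through DN4. In KO-labelled mice, where Fcer1g also passed the filter through DN4, the difference was 1.27 (SE 0.494). Fcer1g counts among the called genes in Wt mice, and in KO-labelled mice only with the mouse as a block (1.23, SE 0.402). The gene is also expressed by myeloid cells, whose 12 markers summed to 24.5 to 37.0 CPM in DN3 and 57.6 to 426 CPM in DN4 libraries, and the part of such cells in the Fcer1g level was not tested.

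Ccl5, a chemokine that effector lymphocytes store and secrete, had 1 to 7 counts in each DN3 library. In DN4 it was at 8.22, 4.48, 3.66 and 17.7 CPM in WT05, WT40, WT46 and WT48, and at 6.43, 13.7 and 5.67 CPM in KO45, KO49 and KO51. As with Tbx21, WT48 and KO49 had the highest levels. The fitted stage difference was 4.47 in Wt (SE 0.864) and 4.78 in KO-labelled mice (SE 0.650), again without a test.

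Among DN3 cells the genotypes were compared directly, a contrast that the choice of the genes had not used. Of the 10 genes, 4 passed the filter on low counts and 0 were called, where 0% of 12105 genes were called. The KO-labelled minus Wt difference was -0.07 for Nkg7 (SE 0.372), 0.10 for Ctsw (SE 0.305), 0.15 for Gzma (SE 0.137) and 0.55 for Fcer1g (SE 0.547), each with an edgeR adjusted p of 1. Without the DN3 library of WT05 these values were -0.39, -0.0089, 0.12 and 0.63, so that Ctsw changed sign. At an unadjusted p under 0.05 there were 168 genes overall and 0 of these 4, and DESeq2's Wald test called 3 genes overall and 0 of the list. For 0 of the 10 did the genotypes separate in DN3, as they did with KO-labelled libraries higher for 3.61% and lower for 2.8% of genes, and the SEs of Nkg7 and Ctsw leave room for differences as large as those seen in DN4. The other 6 genes did not pass the filter in DN3. With no filter beyond 1 count, or with all 13 libraries in 1 fit, all 10 could be tested and 0 were called.

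In DN4 cells, the contrast from which the genes were chosen, 7 of the 10 had a lower fitted value and 3 a higher one in KO-labelled cells, where 49.5% of the 13084 genes tested had a lower value. The fitted log2 difference was -0.71 for Nkg7 (SE 0.110), -0.62 for Ctsw (SE 0.114), -0.79 for Eomes (SE 0.220) and -1.18 for Klrd1 (SE 0.372). When 1 library was left out, they ranged from -0.80 to -0.66, -0.71 to -0.54, -0.88 to -0.69 and -1.47 to -0.91. It was -0.58 for Prf1 (SE 0.246), -0.50 for Fcer1g (SE 0.352) and -0.28 for Gzma (SE 0.165), with ranges of -0.76 to -0.39, -0.86 to -0.28 and -0.38 to -0.12, and KO45 had the most weight for Gzma, which stood at -0.12 without it. Gzmb, Ccl5 and Tbx21 had values of 0.65 (SE 0.645), 0.05 (SE 0.550) and 0.04 (SE 0.576), with ranges of -0.10 to 1.22, -0.44 to 0.67 and -0.47 to 0.72 when 1 library was left out. Each changed sign without KO49, Ccl5 and Tbx21 also without WT40 or WT46, and Tbx21 also without WT05. Over all genes 0.0535% were called in this contrast, and 3 of the list, Nkg7, Eomes and Ctsw, had KO-labelled libraries that all lay below the Wt libraries, as did 3.86% of all genes tested. Relative to Ptprc counts, Ctsw no longer separated. The 7 DN3 markers moved the other way in this contrast, with a sum of 696, 762 and 848 CPM in KO45, KO49 and KO51 and 566 to 599 CPM in the Wt DN4 libraries, without overlap. Of these markers 5 had a higher fitted value in KO-labelled cells, 3 at an unadjusted p under 0.05, and 0 were called by edgeR. Notch3, singled out after its values were seen, was at 78.1 to 149 CPM in KO-labelled and 47.3 to 56.0 CPM in Wt DN4 libraries. The part of this difference in the levels of the 10 genes was not tested.

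The size of the list that was lower depended on KO49. Without this library all 10 genes had a lower fitted value in KO-labelled DN4 cells, and leaving out WT05, WT40 or WT46 gave 8, 9 and 9. In the mice with Xist counts alone, that is without WT40 and WT46, an alternative chosen after seeing the data, 9 of 10 were lower, with -0.79 for Nkg7, -0.55 for Ctsw, -0.68 for Eomes and -1.09 for Klrd1. Gzmb was then at 0.02.

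**Figure D3:**
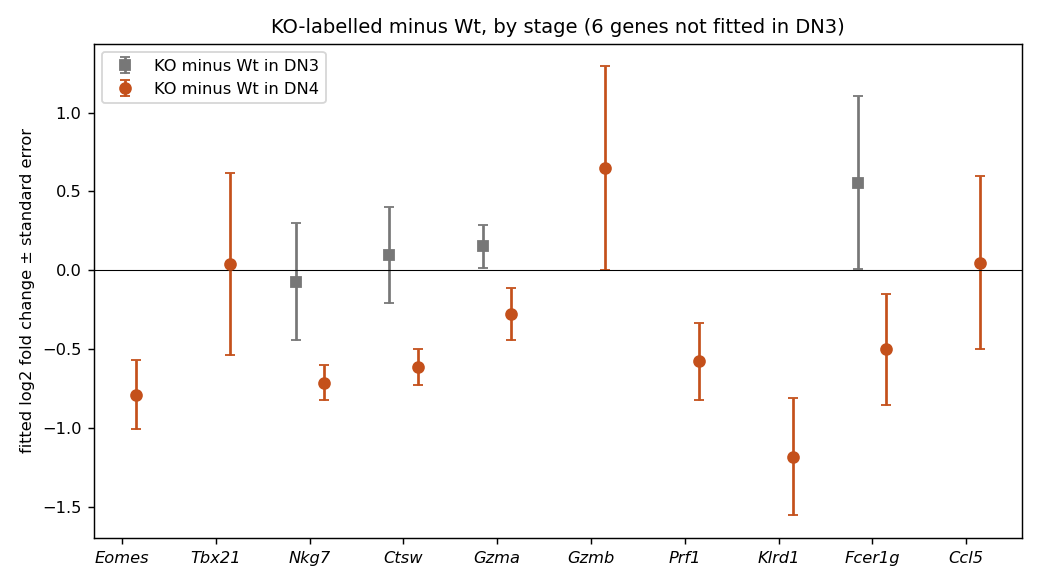
Fitted log2 fold change of KO-labelled minus Wt libraries with its standard error, for DN3 (grey squares, the 4 genes past the filter) and DN4 (orange circles, all 10 genes). The DN4 values chose the list and carry no test. They run from -1.18 for Klrd1 to 0.65 for Gzmb, while the 4 DN3 values lie between -0.07 and 0.55.

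The DN4 libraries differed in markers of other cells, and some of the 10 genes followed that order. The 7 NK and ILC1 markers, among them Ncr1 and Klrb1c, had 0 counts in the 6 DN3 libraries and all 7 were read in DN4. Their sum was 7.23, 14.3 and 4.28 CPM in KO45, KO49 and KO51, and 8.06, 4.58, 4.38 and 15.4 CPM in WT05, WT40, WT46 and WT48. The 8 B cell markers summed to 276 to 427 CPM in DN3, to 943 to 3698 CPM in KO-labelled DN4 and to 1147 to 5786 CPM in Wt DN4 libraries. In each genotype 8 of 8 were called higher in DN4, beside 13.4% of all genes in Wt and 11.2% in KO-labelled mice. Some of them, Ms4a1, Pax5 and Ebf1 included, were near 0 in DN3 and reached the filter through DN4, so this count is a description. WT48 had the highest and KO49 the second highest sum of both lists.

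The same pair of libraries held the highest and second highest levels of Tbx21 and Ccl5, and, with KO49 first, of Gzmb. Across the genotypes Nkg7, Ctsw and Eomes did not follow this order, although within each genotype Nkg7 came close to it, with KO49 the highest KO-labelled library and WT05 and WT48 the highest Wt libraries. KO49, with an NK marker sum above those of WT05, WT40 and WT46, had 46.3 CPM of Nkg7, below each of them, and it had the lowest Ctsw level of the 7 libraries. In the DN4 genotype contrast, 4 of the 5 NK markers tested had a higher, 9 of 10 γδ T cell markers a lower and 8 of 8 B cell markers a lower fitted value in KO-labelled cells, where 49.5% of all genes had a lower one, and 0 of each list were called. The 6 basophil and mast cell markers summed to 31.1 to 41.5 CPM in KO-labelled and 41.7 to 80.8 CPM in Wt DN4 libraries, which did not overlap, in the same direction as Nkg7, Eomes and Ctsw. Kit and Cpa3, which early thymocytes also express, carried this sum. The other 4, Mcpt8, Ms4a2, Gata2 and Il4, were each at 0 to 0.814 CPM in the DN4 libraries, so the separation was not shown for basophils or mast cells. In DN3, where Mcpt8, Ms4a2 and Il4 had 0 counts, the list summed to 56.8 to 155 CPM. γδ T cell markers summed to 1351 to 1488 CPM in KO-labelled and 1321 to 2782 CPM in Wt DN4 libraries. KO45 stood apart in T cell markers. The 10 mature αβ T and NKT cell markers summed to 3448 CPM in KO45, 1571 to 1572 CPM in the other KO-labelled and 1595 to 2506 CPM in the Wt DN4 libraries, and to 482 to 995 CPM in DN3. The 8 markers of DN4 and later stages, of which Cd4, Cd8a and Cd8b1 are in both lists, summed to 3878 CPM in KO45 and 925 to 2530 CPM in the other DN4 libraries, and Cd4 was at 685 CPM in KO45 and 18.6 to 249 CPM in the other 6. KO45 was also the lowest DN4 library for Nkg7, Gzma and Fcer1g. Without KO45 the KO-labelled minus Wt value was -0.66 for Nkg7, -0.12 for Gzma and -0.28 for Fcer1g. The part of these cells in the levels of the 10 genes was not tested.

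**Figure D4:**
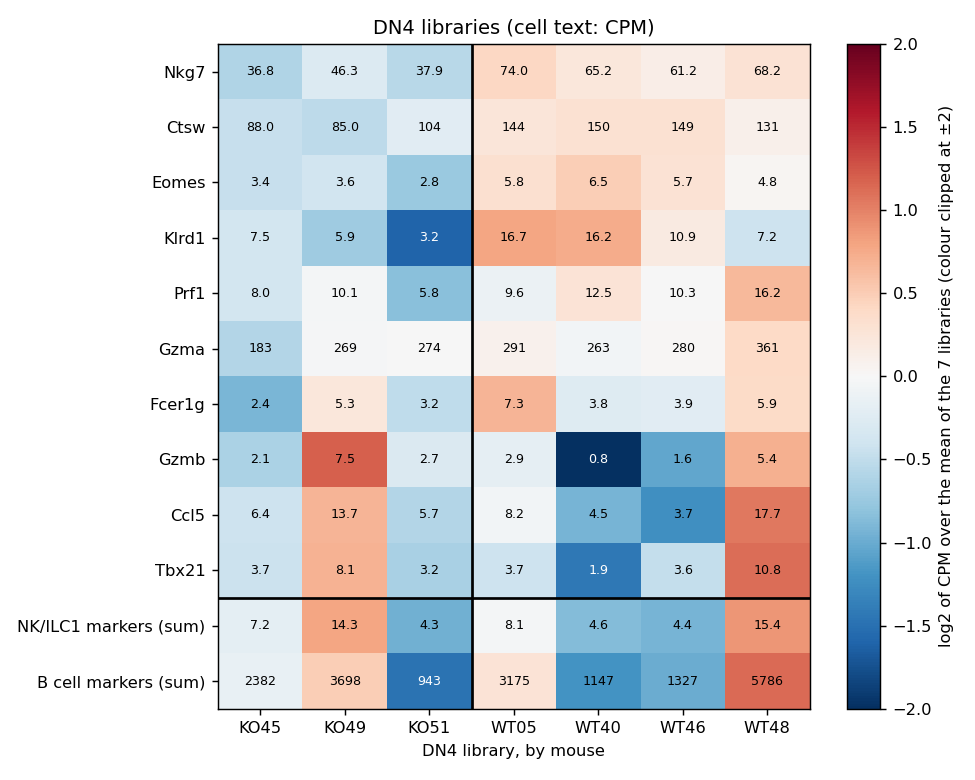
The 10 genes and the summed NK/ILC1 and B cell markers in the 7 DN4 libraries, with 3 KO-labelled mice left of the vertical line and 4 Wt mice right of it. Numbers in the cells are CPM and colour is log2 of the CPM over the mean of the 7 libraries. Nkg7, Ctsw and Eomes divide at the line, whereas Gzmb, Ccl5 and Tbx21 are highest in KO49 and WT48, as are both marker sums.

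Across the 7 DN4 libraries, the gene most like Nkg7 was Bin2, with a Pearson r of 0.996 of log2 CPM among 13083 genes. It was followed by Xcl1 (0.979), a chemokine of NK and T cells, Pde3b (0.978), Cd7 (0.976), 5830468F06Rik (0.970), Appl2 (0.969), Abhd5 (0.969), Farp1 (0.966), Casd1 (0.963) and Crim1 (0.961). Within the list, r with Nkg7 was 0.910 for Eomes and 0.856 for Ctsw, and 0.767, 0.756, 0.746 and 0.672 for Klrd1, Fcer1g, Prf1 and Gzma. It was 0.110, 0.0551 and -0.129 for Ccl5, Tbx21 and Gzmb. These values describe 7 libraries and carry the genotype difference by which the list was chosen. After subtraction of the mean of each genotype, r with Nkg7 over the same 7 libraries was 0.225 for Eomes, -0.491 for Ctsw and 0.187 for Klrd1, and 0.943, 0.706, 0.693 and 0.498 for Fcer1g, Gzmb, Ccl5 and Tbx21. The order among the 10 genes thus differed with and without the genotype difference.

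After subtraction of the 4 group means, which removes stage and genotype, the closest pairs over the 13 libraries were Gzma and Gzmb (r = 0.759), Gzmb and Fcer1g (0.721), Tbx21 and Ccl5 (0.651) and Gzmb and Tbx21 (0.648). Ctsw went against Prf1 (r = -0.691) and Tbx21 (r = -0.605), and Klrd1 against Gzma (r = -0.583). Over the 7 DN4 libraries alone, which leaves out the DN3 library of WT05, these pairs had r of 0.732, 0.847, 0.893 and 0.941, and of -0.850, -0.786 and -0.773. For Nkg7 and Ctsw, r was 0.595 over the 13 libraries and -0.491 over the DN4 libraries, so the sign of this pair depended on the DN3 libraries. The libraries share depth and cell make-up, and several of these genes have few DN3 counts, so these values are given as a description.

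Other genes of the cytotoxic and innate programme were read from 3 companion lists, and their counts between stages stand beside the 13.4% (Wt) and 11.2% (KO-labelled) of all genes called higher and the 9.43% and 7.34% called lower. Those of their genes that were near 0 in DN3 had passed the filter through DN4 and had to be higher there, so these counts are given as a description. Of 17 other effector genes, 11 were tested between stages in each genotype, with 3 called higher and 1 lower in Wt and 1 higher and 2 lower in KO-labelled mice. Xcl1, with 23 and 10 counts over Wt and KO-labelled DN3, had 382 and 212 over DN4, and it passed the filter through DN4. Rab27a, a small GTPase of granule docking, fell in both (-0.98 and -1.18), Srgn and Ctsc, for the granule proteoglycan serglycin and the granzyme-activating cathepsin C, rose in Wt (1.06 and 0.78) and had values of 0.17 and 0.25 in KO-labelled mice that did not pass. Serpinb6b, a protease inhibitor, fell in KO-labelled mice (-0.67) and had a value of -0.20 in Wt that did not pass. Whether the genotypes differ in these changes was not tested. Ifng stayed at 0.0975 to 0.658 CPM in the DN4 libraries.

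Of 29 NK and innate receptors and adaptors, 17 were tested, with 12 called higher and 1 lower in Wt and 11 higher and 1 lower in KO-labelled mice. Klrk1, the NKG2D receptor, Klrb1c and the Ly49 genes Klra1 and Klra7 had 0 counts in DN3 of the genotypes in which they lead the list, and Crtam had 1 count in DN3 of each. Klrk1 had 125 counts over KO-labelled and 64 over Wt DN4, Klra1 had 62 and 186, and Klrb1c 109 over DN4 of each genotype. Klrk1 in Wt and Klra1 in KO-labelled mice did not pass the filter between stages. The gene called lower in both genotypes was Il12rb2, a chain of the IL-12 receptor (-0.76 and -0.77).

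Among 20 transcription factor genes, 19 were tested, and 10 were called higher in each genotype, with 2 lower in Wt and 0 in KO-labelled mice. Klf2, a regulator of thymocyte exit, rose in Wt (4.98, SE 0.406, edgeR adjusted p = 1.5e-04) and in KO-labelled mice (3.94, SE 0.318, adjusted p = 4.8e-04). In DN4 it was at 80.2, 115 and 56.9 CPM in KO45, KO49 and KO51 and at 118, 85.3, 83.6 and 199 CPM in WT05, WT40, WT46 and WT48. Its highest libraries, WT48, WT05 and KO49, also had the highest B cell marker sums, and the part of such cells in the Klf2 level was not tested. Zbtb16, which encodes the innate lymphocyte factor PLZF, had 6 and 8 counts over Wt and KO-labelled DN3 and 305 and 170 over DN4. Zfp683, which encodes Hobit, had 1 to 2 counts in DN3 of a genotype and 83 and 134 counts in KO-labelled and Wt DN4. Rora and Irf8 also rose in each genotype, by 2.83 and 3.18 in Wt mice and by 3.35 and 2.74 in KO-labelled ones. Irf8, which B cells and dendritic cells also express, was at 79.9, 132 and 27.3 CPM in KO45, KO49 and KO51 and at 109, 28.6, 39.3 and 197 CPM in WT05, WT40, WT46 and WT48, highest in the libraries with the highest B cell and myeloid marker sums, and the part of such cells was not tested. Zeb2 (-1.49) and Bcl11b (-0.78), a T lineage commitment factor, fell in Wt, and their values of -1.23 and -0.36 in KO-labelled mice did not pass the test. The DN3 library of WT05 had the highest Wt DN3 level of both, at 36.8 CPM for Zeb2 and 767 CPM for Bcl11b. In WT46 and WT48 the DN3 levels were 24.2 and 19.5 CPM for Zeb2 and 469 and 490 CPM for Bcl11b. Again, the difference between genotypes was not tested.

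Between genotypes, 0 genes of the 3 companion lists were called in DN3, with 10, 8 and 17 tested, or in DN4, with 12, 24 and 20 tested, by edgeR's quasi-likelihood test. At an unadjusted p under 0.05 there were 0, 0 and 1 in DN3 and 2, 8 and 2 in DN4, where over all genes there were 715 of 13084. In DN4 the fitted value was lower in KO-labelled cells for 10 of 12 effector genes, 15 of 24 receptors and adaptors and 14 of 20 transcription factors, beside 49.5% of all genes. KO-labelled libraries lay below Wt libraries without overlap for Xcl1, Serpinb6b, Cd7, Il18r1, Il2rb and Klra1, 6 genes singled out after their values were seen, as they did for 3.86% of all genes. Il2rb, the β chain of the IL-2 and IL-15 receptors, was at 95.5, 129 and 112 CPM in KO-labelled and 254, 167, 143 and 170 CPM in Wt DN4 cells. Il12rb2 was the receptor with higher values in each KO-labelled library, at 37.7 to 40.9 CPM against 30.7 to 35.3 CPM.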

How the data were processed

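RNA-seq libraries of sorted DN3 and DN4 thymocytes were prepared with a stranded mRNA kit. The authors trimmed reads with Cutadapt, mapped them with STAR (build mm10, per the submitters' processing notes) and made the deposited read counts per gene with featureCounts. The annotation release and strand setting were not given in the sources used here. All values were whole numbers, and 0 columns were left unused. Groups were taken from the labels. Each mouse gave at most 1 library per stage, and WT40 gave a DN4 library alone.

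Counts were tested with edgeR 4.0.16 (quasi-likelihood, TMM, filterByExpr with a minimum count of 10, R 4.3.3), 1 fit per comparison, with Benjamini-Hochberg adjustment over all genes tested and a threshold of 0.05. CPM are TMM-scaled, and log2 CPM for correlations used a prior count of 2. Alternatives used DESeq2 1.42.0 (size factors, Wald test), limma 3.58.1 (voom), library totals, other filters, a joint fit, the mouse as a block and leaving out each library. DN3 and DN4 libraries of a mouse deviated together (r from 0.127 to 0.458 over 13361 genes). No libraries agreed within sampling noise (smallest chi-square per degree of freedom 5.85). On simulated data with 200 genes changed 4-fold, 88%, 91%, 84.5% and 89.5% were recovered for genotype in DN3 and DN4 and stage in Wt and KO-labelled mice, on 12105, 13084, 12691 and 12580 genes, with 8.81%, 6.67%, 7.65% and 7.25% of calls false. These shares of false calls were above the threshold of 0.05. The genotype differences fitted for the 10 genes were smaller than 4-fold, and recovery at their size was not simulated. The floor for a group at 0 was 3 counts, and intervals cover counting error only.

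The 10 genes and the companion and marker lists were chosen with earlier results of these data known. Named companions were the called genes of largest change, up to 4 per direction, list and comparison; the genes most like Nkg7 were the 10 with the highest r over DN4 libraries. Gene names and lengths are from GENCODE M21, in which 47310 of 47937 identifiers were found. Promoter windows are from RefSeq. In Eomes 2.1% of 50-base stretches, and in the other 9 genes 0, occur in other genes.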

Additional observations from a re-analysis of the deposited data

How the results depend on the processing

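The direction of the members called did not change under any alternative run. With at least 10 counts in every library, 3 of the 10 genes could be tested between stages, and 2 (Nkg7, Ctsw) were called in Wt and 1 (Ctsw) in KO-labelled mice, since fewer genes were tested. Leaving out 1 library at a time gave 6 to 8 called genes in Wt and 6 to 7 in KO-labelled mice, 0 in the DN3 genotype comparison and 7 to 10 lower genes in DN4. The mouse as a replicate block, which pairs the libraries, gave 9 called genes in Wt and 8 in KO-labelled mice by adding Tbx21 and Fcer1g, respectively, and changed no other call. In the DN3 genotype comparison, Nkg7 turned to 0.0596 with library totals, where the median of all genes shifted to 0.23, and to 0.0634 without WT46, the DN3 library with 2 Xist counts. Leaving out single libraries moved it from -0.39 to 0.21, and Ctsw from -0.29 to 0.32. With library totals, Nkg7 (1.08) left and Tbx21 (2.21) joined the genes called between stages in Wt. Over all genes, the 7 calls between genotypes in DN4 became 51 with DESeq2's Wald test, 11 without the filter, 1 in mice with Xist counts and 0 to 8 when 1 library was left out. In DN3 the 0 calls became 3 with DESeq2. Between stages, the 2903 calls in Wt became 1782 with library totals, 2340 with the block, which also drops WT40, and 1845 to 3393 when 1 library was left out, and the 2338 in KO-labelled mice became 4499 with the block and 1407 to 2790 when 1 library was left out. At the depth of these libraries, genes under 1 CPM rest on about 10 counts or fewer, and groups of 3 or 4 mice leave wide errors for Gzmb, Tbx21 and Ccl5.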
